A study of Mus musculus with 8 samples.

Results

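The response of clone 8 of an ERK-inducible mouse line to 4-hydroxytamoxifen (4OHT) was read from 4 of the 8 RNA-seq libraries in the series. They are the 2 libraries of clone 8 labelled 4OHT and the 2 labelled vehicle, chosen by the clone and treatment in their labels and by no measured value. All 8 libraries were made from epiblast, the tissue that forms the body of the embryo, at embryonic day 5.5 (E5.5), and the labels give all embryos, vehicle controls included, Sox2Cre and the construct through which ERK is induced. The 4OHT group of clone 8 was kept for 4 h in IVC2 medium with 250 nM 4OHT. The vehicle group of clone 8 was given ethanol for 4 h according to its treatment label, whereas its title reads 0h. If these embryos were taken without culture, the comparison also holds 4 h of culture. Clone 4 was sampled in the same groups of 2 libraries and is used here only to place the levels of clone 8 and to test where its response differed. Sox2Cre is a Cre recombinase that is active in the epiblast. Each clone is 1 line derived from targeted embryonic stem cells, so that a finding in clone 8 is a finding in 1 clone. Each library held a pool of 10 epiblasts, freed of their extraembryonic layers by microdissection, and 7 ng of their RNA. The labels do not say whether replicates came from separate litters or days, so p-values measure only the spread between these pools, which may be technical.

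In the ERK cascade, RAF-family kinases phosphorylate MEK, which in turn phosphorylates ERK. Active ERK enters the nucleus and, through ETS-family factors that work with the serum response factor SRF, switches on immediate early genes such as the Egr and Fos genes within minutes. Later targets include the Dusp phosphatases and the Sprouty proteins, which dampen the same cascade. In the early post-implantation embryo, FGF acting through ERK is known for moving the epiblast out of naive pluripotency. It also sustains the extraembryonic ectoderm, the trophoblast tissue that adjoins the epiblast, while the visceral endoderm surrounds both.

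In clone 8, 4OHT libraries held more RNA of Egr and Nab genes, of other immediate early genes and of extraembryonic ectoderm markers, and less RNA of ribosomal proteins, of nuclear-encoded respiratory chain subunits and of visceral endoderm markers. Of 18321 tested genes, edgeR called 1465 higher (8.00%) and 1576 lower (8.60%) with 4OHT at an adjusted p under 0.05. A change of 2-fold or more was seen in 616 and 444 of these. The median log2 fold change was 0.88 among the genes called higher, -0.80 among those called lower, and 0.07 over all tested genes. Counts of called genes in the lists below are to be read against 8.00% higher and 8.60% lower. Values below are CPM, counts of a gene scaled to an equal TMM-adjusted total in every library, which compare libraries but not genes of different length; they are given for replicates 1 and 2 in this order, and log2 fold changes are 4OHT relative to vehicle.

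The clone 8 vehicle libraries stood apart from the rest of the series in most of the called genes, and this bears on most results below. Both of them lay above, or both below, the other 6 libraries in 80.3% of the genes called higher and 79.8% of the genes called lower, against 30.6% of all tested genes. The clone 8 4OHT libraries lay outside the other 6 in 36.7% of the genes called higher and 39.0% of those called lower, against 18.9% of all. A difference called within clone 8 was thus more often one in which the 4OHT libraries sat at the level of clone 4 and the vehicle libraries did not. Depth also differed, at 37.8 M and 33.3 M counts in vehicle and 58.0 M and 57.4 M with 4OHT. The share of counts from mitochondrially encoded genes was 0.47% and 0.619% in vehicle and 1.35% and 1.19% with 4OHT. The parts of depth and of this share in the calls were not tested one by one; with all libraries thinned to equal depth, edgeR called 1558 genes higher and 1617 lower.

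The number of calls depends on single libraries. Without replicate 1 of vehicle no gene passed the adjusted threshold in edgeR, with 3801 genes at an unadjusted p under 0.05, so that every call named below is lost without it. A fit of the 4 clone 8 libraries alone called 3 genes higher and 0 lower, with 4844 at an unadjusted p under 0.05. It leaves 2 residual degrees of freedom where the fit of all 8 libraries has 4, and the part of this in the fewer calls was not tested. Without replicate 1 or 2 of the clone 4 vehicle group 767 and 759 genes were called higher, and without replicate 1 or 2 of the clone 4 4OHT group 931 and 915. Scaling by library totals in place of TMM moved the median of all genes from 0.07 to 0.19 and gave 2101 genes higher and 1076 lower. After each library's trend with transcript length and GC content was removed, 877 were higher and 1466 lower.

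The construct was looked for through Esr1, which encodes the oestrogen receptor, whose hormone-binding domain is the switch in tamoxifen-controlled fusion proteins. Esr1 stood at 0.195 and 0.723 CPM in vehicle and 5.92 and 6.75 CPM with 4OHT, and at 0.187 and 0.476 against 6.13 and 6.08 CPM in clone 4. Both 4OHT libraries lay far above both vehicle libraries in each clone, and the log2 fold change in clone 8 was 3.79 (SE 0.56, edgeR adjusted p 0.0087). All 4 vehicle libraries of the series were thus below 1 CPM, although their labels give them the construct too. Reads of the construct and of the endogenous gene cannot be told apart in these counts, and whether the vehicle embryos carried the construct was not tested. If they did not, the comparison also holds a difference in genotype.

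**Figure D1:**
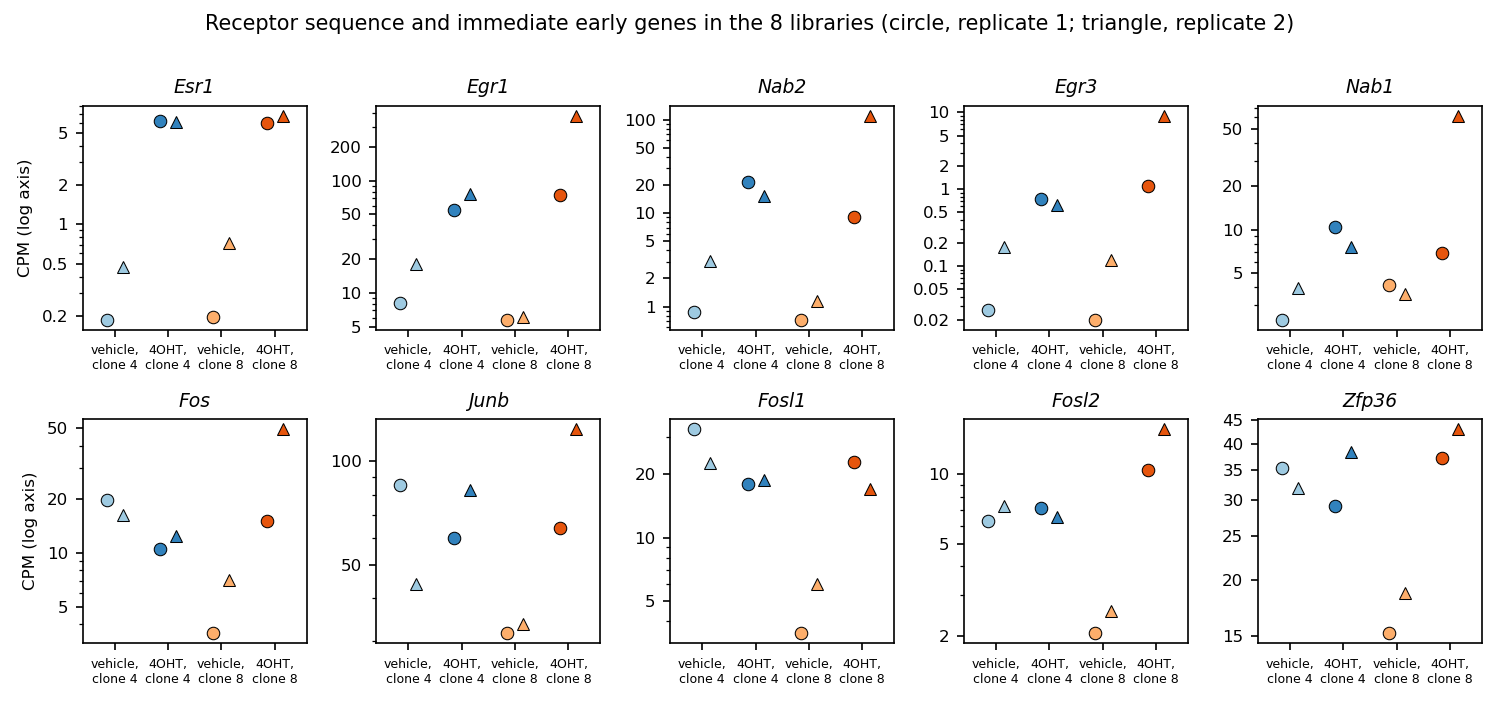
Level of Esr1 and of 9 immediate early genes in CPM (log axis) in each of the 8 libraries, grouped by treatment and clone, with a circle for replicate 1 and a triangle for replicate 2; the vehicle library of clone 8 with 0 counts of Egr3 is drawn at 0.02 CPM. In the panels of Esr1, Egr1, Nab2, Egr3 and Nab1 the 4OHT libraries of both clones lie above the vehicle libraries of their clone, while in those of Fosl1, Fosl2 and Zfp36 the vehicle libraries of clone 8 lie below all the others.

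Of 22 tested immediate early transcription factors and their cofactors, edgeR called 12 higher (54.5%) and 2 lower, with a median log2 fold change of 1.15, beside 8.00% higher and a median of 0.07 over all genes. Both 4OHT libraries lay above both vehicle libraries in 15 members, beside 31.7% of all tested genes. In clone 4 the median log2 fold change of the list was 0.14. Among the 12 called higher, the clone 8 vehicle libraries lay outside the other 6 in 7 and the clone 8 4OHT libraries in 4. The 4OHT replicates were unequal, with replicate 2 above replicate 1 in 20 of the 22, beside 47.2% of all tested genes. Summed over the list, the vehicle libraries held 443.6 and 442 CPM and the 4OHT libraries 637.7 and 1517 CPM. Without replicate 2 of 4OHT 8 members were called higher and Egr2, Egr4, Nab1 and Junb no longer were, and without replicate 2 of vehicle 7 were called.

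Egr1, a zinc finger factor and among the fastest ERK targets, held 5.77 and 6.11 CPM in vehicle and 74.7 and 379 CPM with 4OHT. Its log2 fold change was 5.25 (SE 0.73, edgeR adjusted p 0.00834), the largest among named genes above the median level of expression, and it stayed called when either 4OHT library was left out (adjusted p 0.000553 and 0.00362). In clone 4 Egr1 went from 8.05 and 18.2 to 55.3 and 75.9 CPM, and the difference of 2.93 between the clones' log2 responses did not pass the test (adjusted p 0.108). Its relative Egr2 held 0.529 and 0.542 against 1.11 and 7.42 CPM. Egr3 held 0 and 4 counts in vehicle and 68 and 541 with 4OHT, which is 0 and 0.1205 against 1.09 and 9.02 CPM. Egr4 held 0.0836 and 0.181 against 0.561 and 2.23 CPM. All 4 Egr genes rose, and in each the 4OHT library of replicate 2 was the highest of the series. Without that library the log2 fold change of Egr2 was 1.04 (adjusted p 0.304) and that of Egr4 2.07 (adjusted p 0.211), and neither was called.

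Nab1 and Nab2 encode corepressors that bind Egr proteins and limit their activity. Nab2 held 0.724 and 1.14 CPM in vehicle and 9.08 and 109.7 CPM with 4OHT, a log2 fold change of 5.99 (SE 1.12, edgeR adjusted p 0.0129). Nab1 held 4.12 and 3.58 against 6.91 and 61.4 CPM, a change of 3.15 (SE 0.80, adjusted p 0.0299). In both, replicate 2 of 4OHT lay far above replicate 1. Without replicate 2 of vehicle neither was called (adjusted p 0.057 and 0.143), and without replicate 2 of 4OHT Nab1 was not (0.135). In clone 4 Nab2 went from 0.882 and 3.09 to 21.4 and 15.1 CPM and Nab1 from 2.38 and 3.96 to 10.4 and 7.61 CPM. The Egr and Nab genes were thus higher with 4OHT than with vehicle in both clones, and the difference between the clones' responses passed the test in none of the 6 (edgeR adjusted p from 0.108 in Egr1 to 0.508 in Egr2; at an unadjusted p under 0.05 it passed in 1, Egr1).

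Sequence around the starts of these genes was searched for the sites of the factors involved. The CArG box is the site of SRF, and GCGTGGGCG is the site bound by Egr proteins; both were searched on both strands in the 250 bases before each annotated start. RefSeq promoters (GRCm38.p6) matched 12356 of the tested genes, of which 1.48% held a CArG box and 1.16% an EGR site. Of the 17 immediate early transcription factor genes with a promoter entry, 2 held a CArG box and 2 an EGR site. Of the 12 members called higher, 8 had a promoter entry. Egr1, Egr3, Fosl1 and Myc had none, so that their promoters were not searched. Egr2 and Nab1 are shown because they are the members among these 8 that hold a site within the 250 bases. Sites outside this window were not searched. In Egr2, 4 of 5 listed starts have a CArG box in the window; the site 72 bases before one of them is given with its flanks, on the plus strand at chr10:67537787-67537816. In Nab1 the whole window lies on the minus strand at chr1:52500449-52500698 and holds 2 EGR sites, which begin 141 and 109 bases before the start, the first of them in the reverse orientation. Capitals mark the CArG box in Egr2 and the EGR sites in Nab1.
Egr2: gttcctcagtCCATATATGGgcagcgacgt
Nab1: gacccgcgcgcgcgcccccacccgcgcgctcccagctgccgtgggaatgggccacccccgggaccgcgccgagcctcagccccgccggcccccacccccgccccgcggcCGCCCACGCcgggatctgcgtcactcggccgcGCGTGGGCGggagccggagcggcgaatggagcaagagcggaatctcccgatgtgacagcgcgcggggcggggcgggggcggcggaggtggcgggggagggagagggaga
A match is a description of these letters and not evidence of binding. Among the genes called higher with a promoter entry, 1.12% held a CArG box and 2.05% an EGR site, against 1.96% and 0.937% of those called lower. CRE (TGACGTCA) and AP-1 sites were searched in the same way. They lay in 3.26% and 6.05% of the genes called higher, 3.66% and 3.49% of those called lower, and 2.91% and 4.05% of tested genes. Of the 8 members searched, 0 held either.

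The Fos and Jun families form the AP-1 factors. Fos held 3.57 and 7.05 CPM in vehicle and 15.1 and 49.4 CPM with 4OHT, a log2 fold change of 2.61 (SE 0.52, edgeR adjusted p 0.0147). Fosl1 rose from 3.51 and 6.02 to 22.9 and 17.1 CPM and Fosl2 from 2.06 and 2.56 to 10.4 and 15.6 CPM. Junb rose from 31.7 and 33.8 to 64.3 and 124 CPM. These 4 differ from the Egr and Nab genes in where clone 4 stood: its vehicle libraries held 19.8 and 16.4 CPM of Fos, 32.8 and 22.6 of Fosl1, 6.28 and 7.26 of Fosl2 and 85.2 and 44.1 of Junb, above the clone 8 vehicle libraries in each case. The responses of the clones differed for Fos, Fosl1 and Fosl2 (adjusted p 0.0476, 0.0262 and 0.0262) and the difference did not pass for Junb (0.149). Jun held 15.4 and 15.3 against 12.8 and 51.3 CPM and was not called, the 4OHT replicates lying on either side of vehicle. Jund fell from 6.88 and 5.15 to 1.56 and 2.29 CPM.

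Other members of the list also changed. Myc, a driver of growth, rose from 123 and 133 to 209 and 265 CPM, and the nuclear receptor gene Nr4a1 from 5.41 and 5.66 to 10.6 and 12.1 CPM. Clone 4 held 235 and 185.7 CPM of Myc in vehicle and 214 and 270.5 CPM with 4OHT. Its Nr4a1 stood at 9.36 and 8.69 against 7.96 and 7.50 CPM. For both genes the clone 8 vehicle libraries were below the other 6. Klf10 held 66.5 and 52.2 against 68.8 and 165 CPM and was not called (edgeR adjusted p 0.0696), with only replicate 2 of 4OHT far from vehicle. Srf, which encodes the factor that binds the CArG box, fell from 31.2 and 23.6 to 14.8 and 13.8 CPM, with clone 4 at 9.47 and 11.01 and 11.98 and 10.6 CPM. Srf and Jund are the 2 members called lower, and in both the clone 8 vehicle libraries were above the other 6.

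Immediate early genes of other kinds moved less, with 6 of 24 called higher and 3 lower and a median of 0.31. Arc, whose RNA follows neuronal activity, held 3.399 and 10.5 against 15.8 and 52.8 CPM, a log2 fold change of 2.31 (SE 0.59, edgeR adjusted p 0.0305). Plk3, a polo-like kinase gene, rose from 3.87 and 7.498 to 17.9 and 26.1 CPM. Zfp36 encodes tristetraprolin, which speeds the decay of AU-rich messages, and rose from 15.2 and 18.7 to 37.3 and 43.03 CPM, while its paralogue Zfp36l2 rose from 53.1 and 55.2 to 113 and 141 CPM. Ier2 and Csrnp1 also rose, to 203 and 236 and to 53.1 and 80.9 CPM. The 3 that fell were Id3, an inhibitor of basic helix-loop-helix factors, from 419.8 and 371 to 282 and 191 CPM, Mcl1, which opposes apoptosis, from 122 and 132 to 84.8 and 59.7 CPM, and Ier5l from 3.71 and 3.102 to 0.9304 and 1.43 CPM. Replicate 2 of 4OHT was again above replicate 1 in 20 of the 24, and without it 2 members were called higher, Arc no longer among them (adjusted p 0.122).

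Among 23 inhibitors that act back on ERK signalling, 6 were called higher (26.1%) and 2 lower, with a median of 0.44. Dusp6, the phosphatase that acts on ERK in the cytoplasm, held 150.4 and 184 CPM in vehicle and 240.1 and 339 CPM with 4OHT, a log2 fold change of 0.79 (SE 0.18, edgeR adjusted p 0.02). Dusp9 rose from 141 and 221 to 311 and 281, Dusp14 from 5.66 and 10.6 to 14.9 and 19.5 and Dusp1, a nuclear phosphatase, from 37.5 and 33.6 to 51.4 and 118 CPM. Spry4 rose from 45.4 and 72.9 to 109.6 and 112 CPM, and Errfi1, an inhibitor of the EGF receptor family, from 28.3 and 53.8 to 138 and 91.4 CPM. The 2 that fell were Rasa1, a RAS GTPase-activating protein, from 33.8 and 28.8 to 21.7 and 13.3 CPM, and Spred1 from 41.3 and 35.4 to 27.9 and 23.4 CPM. Leaving out replicate 2 of 4OHT left 2 called higher, Dusp6 not among them (adjusted p 0.0658). In all 8 the clone 8 vehicle libraries lay outside the other 6. Dusp6 held 212 and 212 CPM in clone 4 vehicle, above clone 8 vehicle. Dusp4 held 33.4 and 49.4 against 57.1 and 81.3 CPM and Dusp2 2.201 and 1.63 against 1.89 and 12.99 CPM, and neither was called (adjusted p 0.0715 and 0.0938).

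Of 16 ETS factors, 3 were called higher (18.8%) and 0 lower, beside 8.00% and 8.60% over all tested genes, with a median of 0.28. Ets2, a target as well as a carrier of ERK signals, rose from 24.1 and 32.2 to 60.1 and 74.2 CPM, Gabpa from 75 and 94.7 to 126 and 148 CPM and Elf2 from 51.2 and 53.4 to 68.9 and 83.97 CPM. The clone 4 libraries held between 59.4 and 66.55 CPM of Ets2 in every library, which is the level of the clone 8 4OHT libraries, and the clones' responses differed (adjusted p 0.0418). Etv4 and Etv5, genes that FGF signalling is known to keep on, were not called: Etv4 held 55.05 and 62.7 against 61.9 and 77.9 CPM and Etv5 168 and 266 against 298 and 303 CPM.

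Within the RAS-RAF-MEK-ERK cascade itself 6 of 27 genes were called higher (22.2%) and 5 lower (18.5%), with a median of 0.09. Over all tested genes the shares were 8.00% and 8.60% and the median 0.07. Those that rose include genes of receptor adaptors and large kinases: Frs2 rose from 17.9 and 32.3 to 60.5 and 68.9 CPM, Gab1 from 24.6 and 47.7 to 105 and 103, Shc1 from 109 and 136 to 176 and 172, Braf from 31.4 and 37.5 to 99.7 and 69.1 and Rps6ka6 from 93.6 and 109.9 to 155 and 174 CPM. Those that fell include the small GTPase genes Hras, from 33.8 and 28.1 to 12.7 and 9.04 CPM, and Rras2, from 36.8 and 31.6 to 21.5 and 15.5 CPM. Mapk3, which encodes ERK1, fell from 67.4 and 60.9 to 37.1 and 33.1 CPM. Pebp1, an inhibitor of the cascade, fell from 358 and 318 to 234 and 229 CPM, and Mknk2, a kinase downstream of ERK, from 44.7 and 34.5 to 26.4 and 14.6 CPM. The clone 8 vehicle libraries stood outside the other 6 in all 11.

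Growth factor ligands and receptors had 7 of 32 members called higher (21.9%) and 1 lower (3.12%), beside 8.00% and 8.60% over all tested genes. The receptors that rose were Fgfr2, from 13.1 and 11.2 to 29.3 and 27.5 CPM, Fgfr4, from 6.88 and 10.99 to 22.02 and 22.9 CPM, Erbb2, from 8.66 and 14.2 to 24.7 and 32.3 CPM, and Erbb3, from 16.9 and 22.2 to 38.8 and 46.7 CPM. With them rose Lifr, the receptor of leukaemia inhibitory factor, to 16.5 and 16.8 CPM, Igf2r to 60.7 and 76.4 CPM and Epha2 to 52.5 and 68.7 CPM. The member that fell was Klb, the coreceptor of endocrine FGFs, from 3.87 and 3.28 to 1.83 and 1.25 CPM, whereas in clone 4 it held 1.98 and 1.64 CPM in vehicle and 8.95 and 12.2 CPM with 4OHT. The difference of -3.76 between the clones' log2 responses passed the test (adjusted p 0.0158).

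The epiblast label was read against genes that mark this tissue. Pou5f1, which encodes OCT4, held 888 and 707 CPM in vehicle and 533 and 507 CPM with 4OHT, and Utf1 1103 and 1231 against 934 and 783 CPM, so that both were abundant in all 4 libraries. Pou5f1 fell by 0.62 on the log2 scale (SE 0.14, edgeR adjusted p 0.021). The call was lost without replicate 2 of 4OHT (adjusted p 0.0598). In clone 4 it was also lower with 4OHT, at 494 and 435 against 579 and 695 CPM. Of 12 core pluripotency genes 3 were called lower and 1 higher: Sox2 fell from 32.6 and 30.2 to 19.8 and 16.6 CPM, L1td1, an RNA-binding protein of pluripotent cells, from 214 and 203 to 142 and 135 CPM, and Lin28b, an inhibitor of let-7 maturation, rose from 53.05 and 46.4 to 76.6 and 75.4 CPM. Nanog held 80.9 and 37.9 against 30.5 and 42.4 CPM with overlapping groups and was not called.

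Naive pluripotency genes, which mark the earlier blastocyst state, had 2 of 18 called higher and 1 lower, near the background, with a median of 0.48 beside 0.07 over all tested genes. In 8 of the 18 both 4OHT libraries lay above both vehicle libraries (beside 31.7% of all tested genes), and in 4 below. Klf5 rose from 14.3 and 18.6 to 51.2 and 71.3 CPM and Zfp42, which encodes REX1, from 24.6 and 34.6 to 72.1 and 62.8 CPM. Dppa5a fell from 473 and 697 to 364 and 318 CPM. Klf5 and Zfp42 are also expressed in trophoblast, whose markers moved in these libraries, and the part of that tissue in their rise was not tested. Of 23 genes of the formative and primed states, 2 were called higher and 3 lower. Pou3f1, which encodes OCT6, fell from 129 and 139 to 95.2 and 73.6 CPM, Hes6 from 91.7 and 110.4 to 72.4 and 50.6 CPM and Utf1 as given above, while Myc, counted here too, rose as given above. Otx2 held 154 and 140.1 against 116 and 110.5 CPM, just outside the threshold (edgeR adjusted p 0.0505).

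No primitive streak or mesendoderm gene of 18 was called by edgeR; at an unadjusted p under 0.05, 3 were higher and 2 lower, and DESeq2 called 1 higher and 2 lower. T, the Brachyury gene, held 10.3 and 3.34 CPM in vehicle and 7.63 and 39.6 CPM with 4OHT, so that only replicate 2 of 4OHT was above both vehicle libraries (adjusted p 0.117). Nodal held 37.4 and 19 against 12.3 and 17.9 CPM and was not called either (adjusted p 0.0723).

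Nodal and BMP signalling had 3 of 25 members called higher and 5 lower. Bmp4, the ligand that the extraembryonic ectoderm sends to the epiblast, rose from 34.7 and 49.7 to 172 and 86.4 CPM, and Smad3 from 9.64 and 9.37 to 26.4 and 25.3 CPM. Skil, a repressor of SMAD activity, rose from 212 and 220.4 to 279 and 276 CPM. Smad4 fell from 78.6 and 58.8 to 28.1 and 24.8 CPM and Smad1 from 35.05 and 22.3 to 9.93 and 13.5 CPM. The receptor genes Acvr2b and Bmpr1a fell to 21.9 and 13.4 and 30.7 and 23.1 CPM, and Furin, a protease that matures Nodal, fell from 27.2 and 19.9 to 10.1 and 11.1 CPM. Smad4 held between 22.1 and 24.04 CPM in the 4 libraries of clone 4, so that here too it is the vehicle of clone 8 that stands away.

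Wnt signalling had 1 member of 32 called higher and 6 lower (18.8%). Wnt7b, which the extraembryonic ectoderm expresses, held 11.8 and 19.4 against 94.2 and 78.2 CPM, a log2 fold change of 2.47 (SE 0.30, edgeR adjusted p 0.00699). Wnt6, not on the list but among the strongest rises, went from 7.97 and 7.59 to 35.9 and 31.1 CPM. The receptors Fzd2, Fzd5, Fzd7 and Fzd8 fell, Fzd2 from 41.9 and 30.96 to 14.5 and 9.01 CPM and Fzd5 from 17.4 and 19.97 to 8.09 and 7.41 CPM. Tcf7l1, a repressor at Wnt targets, fell from 124 and 102 to 54.2 and 40.7 CPM and Axin1, a scaffold of the beta-catenin destruction complex, from 47.8 and 36.8 to 22.4 and 18.3 CPM.

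**Figure D2:**
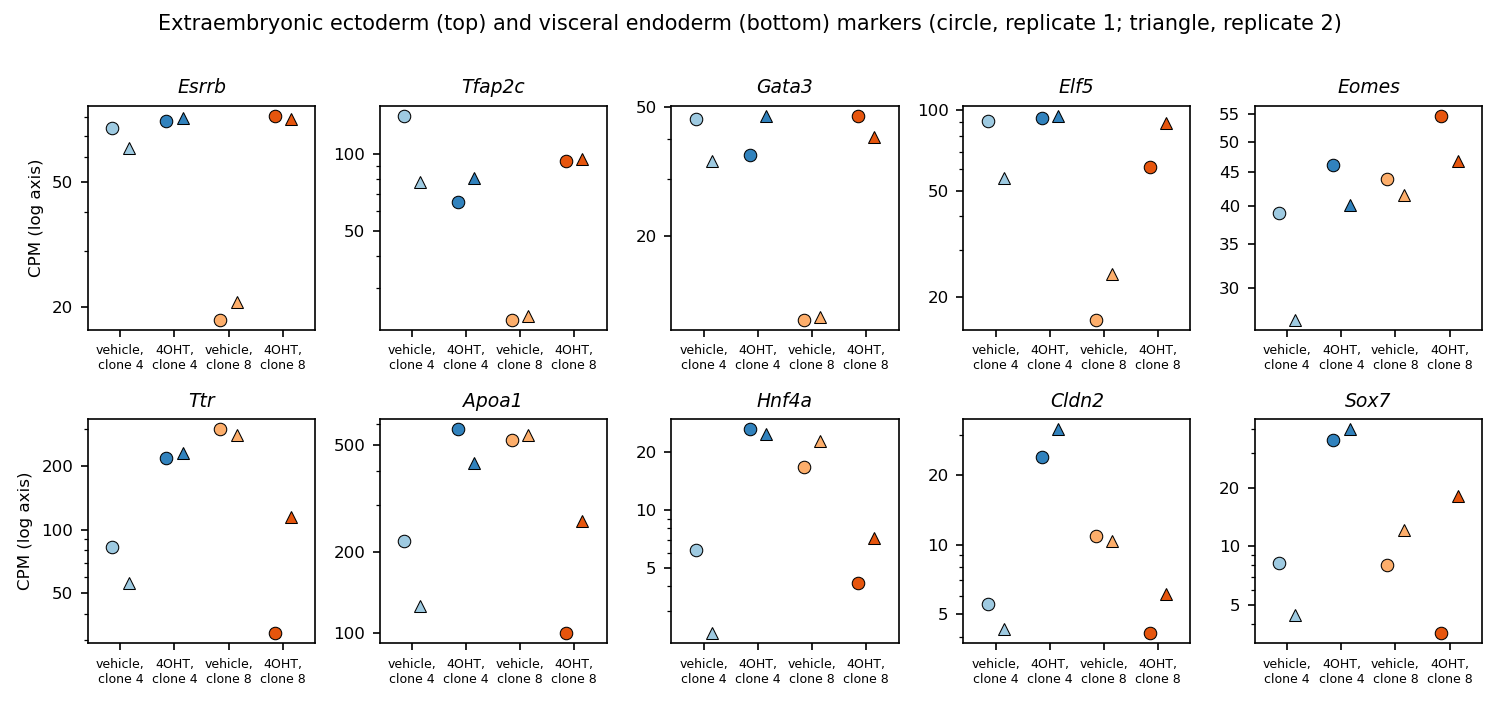
Level in CPM (log axis) of 5 extraembryonic ectoderm markers (top) and 5 visceral endoderm markers (bottom) in each of the 8 libraries, grouped by treatment and clone, with a circle for replicate 1 and a triangle for replicate 2. In the panels of Esrrb, Tfap2c, Gata3 and Elf5 the vehicle libraries of clone 8 lie below the other 6, and in that of Eomes they do not; Ttr, Apoa1, Hnf4a and Cldn2 are lower with 4OHT in clone 8 and higher with 4OHT in clone 4.

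Markers of the extraembryonic ectoderm, a layer meant to be dissected away, had the highest share of genes called higher among the lists of 8 or more tested members. Of 20 tested, 13 were called higher (65.0%) and 0 lower, with a median of 1.36. Esrrb, a nuclear receptor of trophoblast stem cells that is also known as a factor of naive pluripotency, held 18.2 and 20.8 CPM in vehicle and 80.9 and 79.3 CPM with 4OHT, a log2 fold change of 2.04 (SE 0.14, edgeR adjusted p 0.00215). Tfap2c rose from 22.7 and 23.4 to 94.2 and 95.7 CPM and Gata3 from 10.98 and 11.2 to 47.02 and 40.3 CPM. These regulators of trophoblast identity were joined by Elf5, from 16.4 and 24.3 to 61.1 and 89.7 CPM, Cdx2, from 20.6 and 26.7 to 94.8 and 53.97 CPM, and Tead4, from 8.27 and 12.2 to 34.8 and 32.3 CPM. Bmp8b rose from 11.4 and 15.9 to 61.3 and 52.1 CPM and Hand1, a factor of differentiating trophoblast, from 11.1 and 9.61 to 50.6 and 39.1 CPM. In clone 4 vehicle, Esrrb held 74.2 and 63.7 CPM and Tfap2c 141 and 78.04 CPM. In all 13 members called, the clone 8 vehicle libraries lay outside the other 6, and the clones' responses differed in 8 of the 20. Summed over the list, the clone 8 vehicle libraries held 678.5 and 723.8 CPM and the 4OHT libraries 1553 and 1426 CPM, against 1171 to 1643 CPM in clone 4. Eomes held 43.9 and 41.4 against 54.7 and 46.7 CPM and was not called. Tissue left from dissection and expression within the epiblast cannot be told apart in these pools, nor can fewer cells of a type and less RNA per cell. Ets2 and Wnt7b stand in another list too. Each tested marker had counts in every library, and the part of this layer in the other results was not tested.

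Visceral endoderm markers moved the other way in clone 8, with 0 of 24 called higher and 8 lower (33.3%) and a median of -0.999. Ttr, which encodes transthyretin, held 298 and 281 CPM in vehicle and 32.5 and 115 CPM with 4OHT, a log2 fold change of -1.97 (SE 0.46, edgeR adjusted p 0.0227, and 0.0636 without replicate 2 of vehicle). Hnf4a, the regulator of this layer, fell from 16.7 and 22.6 to 4.16 and 7.12 CPM and the apolipoprotein gene Apoa1 from 522 and 548 to 99.9 and 262 CPM. Apom, Rbp4 and Amn, which encode carriers and a receptor subunit of this absorptive tissue, fell to 34.9 and 91.2, 20.9 and 47.9 and 54.4 and 128 CPM. Cldn2 fell from 10.9 and 10.4 to 4.14 and 6.104 CPM and Spink1 from 205 and 193 to 32.4 and 82.2 CPM. Clone 4 ran opposite: its vehicle libraries held 83 and 55.9 CPM of Ttr and its 4OHT libraries 219 and 232 CPM, and the median log2 response of the list was 1.79 there. The responses differed between the clones in 14 of the 24, all lower in clone 8. In clone 8 all 24 markers were higher in replicate 2 of 4OHT than in replicate 1, beside 47.2% of all tested genes. The list summed to 3753 and 3610 CPM in vehicle and 1059 and 2520 CPM with 4OHT. Without replicate 1 of 4OHT 5 members were called, without replicate 2 of 4OHT 16, and without replicate 2 of vehicle 2. Every tested member had counts in each library, and the part of this layer in the other results was not tested. Blood markers had 0 of 7 called by edgeR (1 higher at an unadjusted p under 0.05, 0 by DESeq2), parietal endoderm markers 0 of 7 (1 higher and 1 lower at an unadjusted p under 0.05 and by DESeq2), and 3 of 8 decidua markers were called higher.

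**Figure D3:**
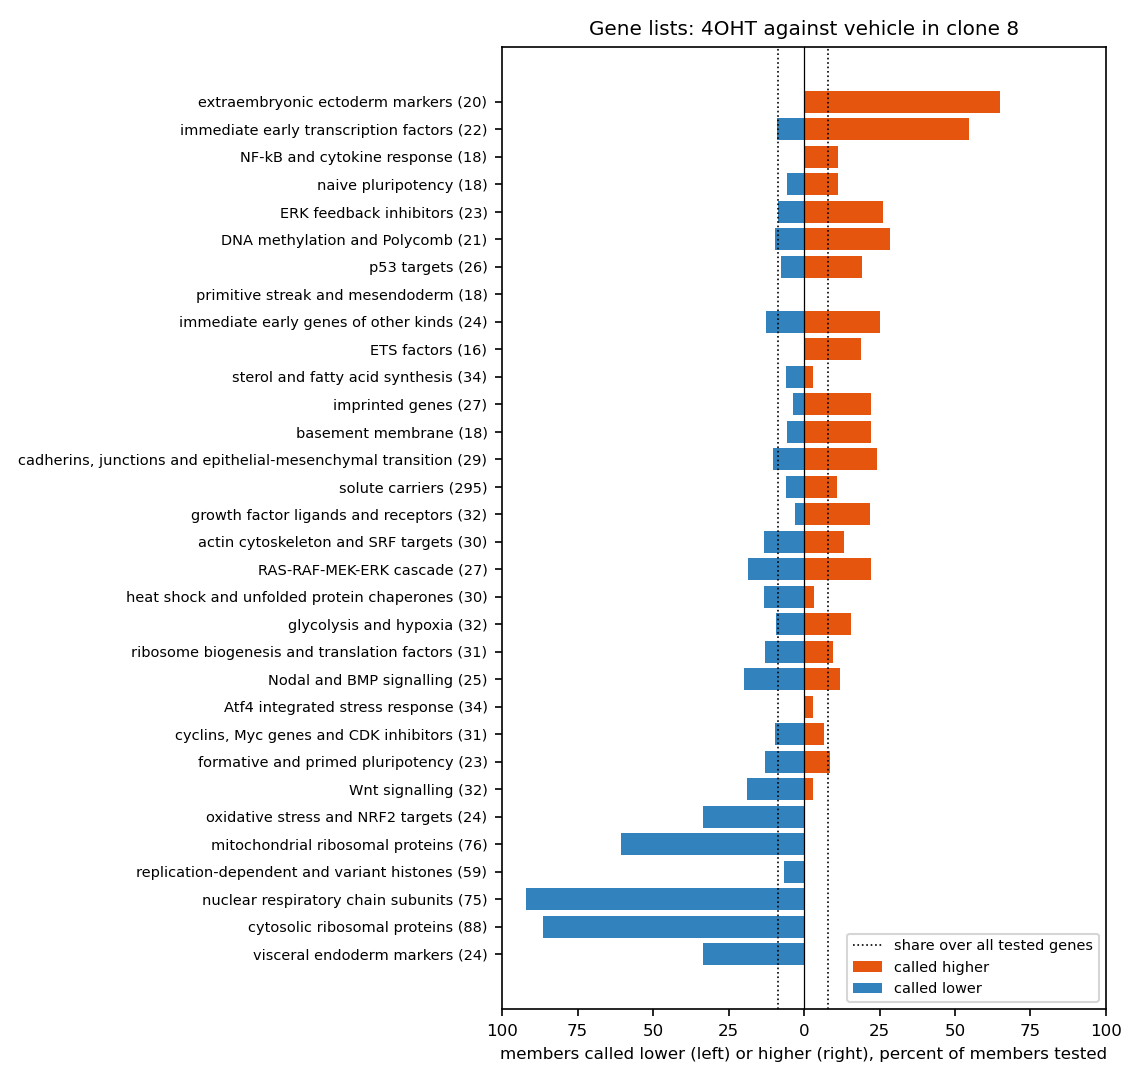
Share of tested members called lower (left) and higher (right) with 4OHT in clone 8, in percent, for each gene list with 15 or more tested members, sorted by the median log2 fold change, with the number tested in brackets; dotted lines mark the shares over all tested genes, 8.60% and 8.00%. Cytosolic ribosomal proteins, mitochondrial ribosomal proteins and nuclear respiratory chain subunits extend far to the left, and extraembryonic ectoderm markers and immediate early transcription factors far to the right.

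The largest shares called lower, among the lists described, lay in genes of protein synthesis and respiration. Of 88 cytosolic ribosomal protein genes, 76 were called lower (86.4%) and 0 higher, with a median of -0.77, beside 8.60% called lower over all genes. DESeq2 called 79 lower and 2 higher. Rps14 held 3115 and 2392 CPM in vehicle and 1509 and 1298 CPM with 4OHT, a log2 fold change of -0.97 (SE 0.14, edgeR adjusted p 0.0088). Rplp1 fell from 1255 and 889 to 545 and 563 CPM and Rpl3 from 1989 and 1556 to 1123 and 1313 CPM. Together the list took 113600 and 88970 CPM in vehicle and 60100 and 63010 CPM with 4OHT, so that both 4OHT libraries were lower and close to each other. Clone 4 held 73160 and 78960 CPM in vehicle and 62720 and 55840 CPM with 4OHT, a median of -0.37. Among the 76 called lower, the clone 8 vehicle libraries lay outside the other 6 in 69 and the clone 8 4OHT libraries in 6. The clones' responses differed in 1 member. Ribosomal protein genes have many processed pseudogenes, and reads shared with them may have been split by the authors' counting.

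Mitochondrial ribosomal proteins had 46 of 76 called lower (60.5%) and 0 higher, with a median of -0.48. Among these 46, the clone 8 vehicle libraries lay outside the other 6 in 40 and the clone 8 4OHT libraries in 28. Mrpl14, a large-subunit protein, fell from 43.6 and 39.99 to 24.03 and 21.6 CPM. With library totals as the scale 22 members were called lower. The count was 15 without replicate 2 of 4OHT and 49 without replicate 1 of 4OHT. Nuclear-encoded subunits of the respiratory chain and ATP synthase had 69 of 75 called lower (92.0%) and 0 higher, with a median of -0.73. Ndufa13, a complex I subunit, fell from 248 and 217 to 119 and 113 CPM, Cox5a, of complex IV, from 299.5 and 242 to 146 and 163 CPM, and Atp5e, of the ATP synthase, from 191 and 163 to 91.9 and 85.4 CPM. The list summed to 26260 and 23280 CPM in vehicle and 16140 and 16510 CPM with 4OHT. In clone 4 it summed to 19740 and 20120 CPM in vehicle and 18570 and 17760 CPM with 4OHT, with a median of -0.125. Among the 69 called lower, the clone 8 vehicle libraries lay outside the other 6 in 61 and the clone 8 4OHT libraries in 40. In this list the responses of the clones differed in 9 members, all lower in clone 8.

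The mitochondrially encoded genes that could be tested went the opposite way to their nuclear partners. The list holds 13 genes, of which 9 had any count in the 8 libraries and 7 passed the expression filter. Why the others had few or no counts was not tested, and nothing is known here of their response. Of the 7 tested, 5 were called higher and 0 lower, with a median of 1.07. mt-Cytb held 1071 and 1472 CPM in vehicle and 4487 and 4014 CPM with 4OHT, mt-Nd1 952 and 1270.0 against 3341 and 3105 CPM and mt-Co1 186 and 219 against 539.5 and 551 CPM. In clone 4 mt-Cytb held 942 and 1481 CPM in vehicle and 676 and 1763 CPM with 4OHT, so that here the clone 8 4OHT libraries were the ones outside the other 6, as in all 5 members called. mt-Nd2 held 296 and 352 against 447 and 323 CPM, with overlapping groups. Without replicate 2 of vehicle 1 member of the list was called, and mt-Cytb was not (edgeR adjusted p 0.0556).

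**Figure D4:**
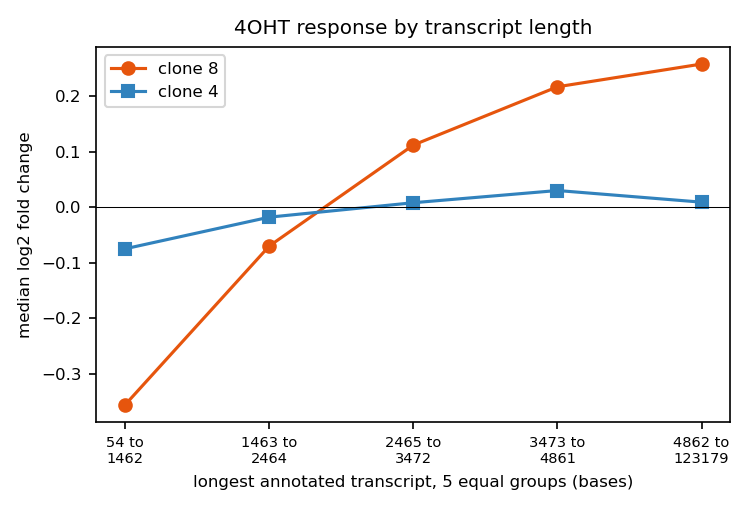
Median log2 fold change of 4OHT against vehicle in clone 8 (circles) and clone 4 (squares) over genes in 5 equal groups by the length of the longest annotated transcript, in bases. In clone 8 the median runs from -0.36 in the shortest group to 0.26 in the longest, while in clone 4 it stays between -0.08 and 0.03.

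The response of clone 8 also ran with transcript length. Across 5 equal groups of genes by length the median log2 fold change was -0.36, -0.07, 0.11, 0.22 and 0.26, from genes up to 1462 bases to those of 4862 bases and more. Genes called lower numbered 645 in the shortest group and 151 in the longest, and genes called higher 64 and 555. The median length was 1054 bases for cytosolic ribosomal protein genes and 1129 bases for respiratory chain subunits, and 3146 bases for extraembryonic ectoderm markers. With the trends with length and GC content removed, 66 ribosomal protein genes were called lower and 1 higher, 39 mitochondrial ribosomal protein genes and 56 respiratory chain genes lower, 13 extraembryonic ectoderm markers and 11 immediate early transcription factors higher, and 4 visceral endoderm markers lower.

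Of 28 RNA polymerase genes, those whose symbol begins with Polr, 5 were called higher and 13 lower, with a median of -0.28. As examples, Polr2a and Polr1a, the largest subunits of polymerases II and I, rose from 96.5 and 119.8 to 175 and 269 CPM and from 74.7 and 96.9 to 138 and 168 CPM, and Polr2i and Polr2l, small subunits, fell from 103 and 93.7 to 59.8 and 52.1 CPM and from 123 and 127 to 65.4 and 78.9 CPM. Nucleoporin genes, those with the stem Nup, had 7 of 21 called higher and 0 lower, among them Nup160, from 79.96 and 129.7 to 202 and 240.3 CPM. Genes with the stem Zfp, mostly zinc finger proteins, had 63 of 381 called higher (16.5%) and 5 lower. Genes with the stem Eif, translation initiation factors, had 2 of 57 called higher and 11 lower.

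Stress and metabolic lists were mixed, and their counts are to be read against 8.00% called higher and 8.60% lower over all tested genes. Of 26 p53 targets 5 were called higher and 2 lower: Perp, a desmosomal membrane protein gene, rose from 40.2 and 41.4 to 101 and 111 CPM, Mdm2, the ligase that degrades p53, from 73.02 and 104 to 147 and 176 CPM, Pmaip1 from 101 and 119.8 to 159.9 and 224 CPM, Ccng1 to 257 and 296 CPM and Polk to 20.5 and 25.1 CPM, while the proapoptotic genes Bax and Ei24 fell to 223 and 187 and 20.2 and 15.99 CPM. Oxidative stress and NRF2 targets had 0 of 24 called higher and 8 lower (33.3%), among them Sod1, the cytosolic superoxide dismutase, from 665 and 529 to 324 and 301 CPM, Fth1, a ferritin chain, from 1598 and 1420.0 to 754 and 1053 CPM, Gpx4 from 226 and 189.6 to 131 and 119 CPM and Gclc, which limits glutathione synthesis, from 48.6 and 47.7 to 30.1 and 15.9 CPM. Of 32 glycolysis and hypoxia genes 5 rose and 3 fell. Ndrg1, a hypoxia target, rose from 10.9 and 17.6 to 39.3 and 45.6 CPM, Hk1 from 17.8 and 25.8 to 50.4 and 54.4 CPM and the glucose transporter gene Slc2a1 from 274 and 270.2 to 386 and 432 CPM, while Egln1, an oxygen-sensing prolyl hydroxylase, fell from 16.3 and 13.01 to 5.08 and 4.07 CPM and Tpi1 from 937 and 738 to 509 and 628 CPM. Without replicate 2 of 4OHT 1 of the p53 targets, Perp, stayed higher. In the Atf4 stress response 1 of 34 genes was called higher and 0 lower. Among chaperones 1 of 30 was called higher and 4 lower, with Hspe1 from 1271 and 1004 to 626 and 596 CPM and Hsp90aa1 from 2446 and 2067 to 1417 and 1420.0 CPM. Sterol and fatty acid synthesis had 1 of 34 called higher and 2 lower.

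Chromatin, adhesion and other lists are given by their counts, to be read against 8.00% and 8.60%. Of 21 DNA methylation and Polycomb genes, 6 were called higher (28.6%) and 2 lower. Jarid2, a Polycomb cofactor, rose from 150.4 and 191 to 279.9 and 342 CPM and the maintenance methyltransferase gene Dnmt1 from 144 and 172 to 226 and 264 CPM, while Ezh2, the Polycomb methyltransferase, fell from 123 and 80.6 to 55.1 and 50.8 CPM and Hdac2 from 78.98 and 56.9 to 35.6 and 36.8 CPM. With length and GC trends removed the list had 3 called each way, and without replicate 2 of 4OHT 3 called higher. Of 29 cadherin, junction and epithelial-mesenchymal transition genes, 7 were called higher and 3 lower: Cdh1, which encodes E-cadherin, rose from 411 and 577 to 798 and 904 CPM, the claudin genes Cldn3 and Cldn4 from 24.7 and 25.8 to 46.1 and 42.7 CPM and from 54.5 and 81.2 to 137 and 131 CPM, and Itgav and Plaur to 37.95 and 46.8 and 47.9 and 50.4 CPM. Vcl, which encodes vinculin, was among 4 of 30 actin and SRF target genes called higher, from 8.999 and 18.8 to 43.2 and 55.5 CPM, with 4 more called lower. Among 27 imprinted genes 6 were called higher and 1 lower, with Peg10 from 53.7 and 72.6 to 120.5 and 222 CPM, Grb10 from 183 and 229 to 292 and 486 CPM and Meg3 from 126 and 121 to 331 and 248 CPM; 2 were called higher without replicate 2 of vehicle. Cyclins, Myc genes and CDK inhibitors had 2 of 31 called higher and 3 lower, Ccne2 rising from 37.7 and 34.4 to 53.7 and 61.7 CPM and Cdk4 and Ccnd1 falling to 712 and 737 and 192 and 145 CPM. Of 295 solute carriers 32 were called higher (10.8%) and 18 lower (6.10%), close to the background. Nfkbiz, an NF-kB cofactor gene, rose from 15.7 and 17.9 to 42.8 and 40.8 CPM, 1 of 2 called higher among 18 NF-kB and cytokine genes.

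Ranked by size of change among called genes above the median level, the 12 largest rises included 5 genes not given so far. Genes known only by a Gm number, a Rik name or an ID were left out of this ranking. Duox2, a dual oxidase gene, held 5.098 and 8.703 against 55.6 and 23.7 CPM, Slc46a3, a lysosomal transporter gene, 5.85 and 9.64 against 17.8 and 66.01 CPM and Itga7, an integrin chain gene, 8.94 and 12.3 against 65.3 and 44.5 CPM. Hs3st3b1, a heparan sulfate sulfotransferase gene, rose from 8.08 and 14.4 to 62.6 and 46.4 CPM and AU018091 from 12.9 and 22.9 to 82.4 and 111 CPM. Slc46a3 was the only one of these 5 whose clone 8 vehicle libraries were not both below the clone 4 libraries. The largest falls were those of Sox12, a SoxC factor gene, with 39.8 and 29.3 against 10.2 and 4.99 CPM and a log2 fold change of -2.19 (SE 0.33, edgeR adjusted p 0.00891), of Pkdcc, a secreted kinase gene, with 59.3 and 33.1 against 9.43 and 11.7 CPM, and of Gna12, a G protein subunit gene, with 37.8 and 29.5 against 9.91 and 6.92 CPM. Another G protein subunit gene, Gnai2, fell from 205 and 130.5 to 66.3 and 35.5 CPM. Bod1 fell from 23.1 and 19.5 to 6.85 and 4.39 CPM, Abhd17a from 25.4 and 23.4 to 8.12 and 6.14 CPM, Khdrbs3 from 20.4 and 16.2 to 6.03 and 4.903 CPM, Ctdnep1 from 33.3 and 24.3 to 9.75 and 7.89 CPM and Fcgrt, the neonatal Fc receptor gene, from 11 and 19.6 to 2.17 and 6.82 CPM. For Sox12, Pkdcc and Gna12 the clone 4 libraries held the level of the clone 8 4OHT libraries, with 8.72 and 10.2, 9.63 and 8.54 and 10.8 and 8.78 CPM in vehicle.

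**Figure D5:**
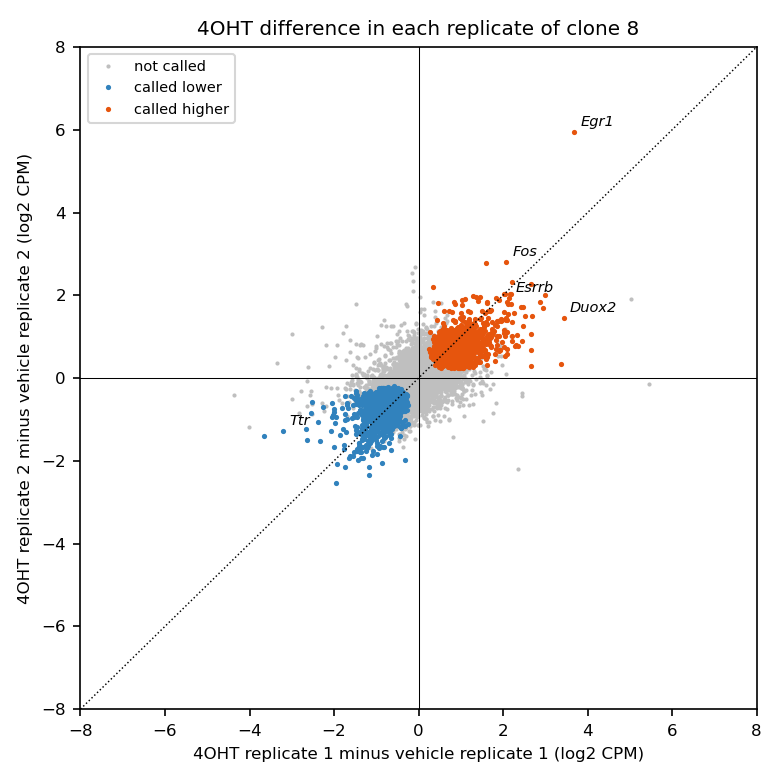
Difference of 4OHT from vehicle in log2 CPM for the replicate 1 libraries (x axis) and the replicate 2 libraries (y axis) of clone 8, for genes above the median level, in orange where called higher, in blue where called lower and in grey where not called. The points lie along the dotted line of equal differences, and Egr1 and Fos lie above it.

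Whether the replicates agree was read from all genes. Both 4OHT libraries lay above both vehicle libraries in 5804 of 18321 genes (31.7%) and below both in 5180 (28.3%), and this held for every called gene. The difference between the replicate 1 libraries and that between the replicate 2 libraries share no library. Across the 18321 genes, which are not independent replicates, the 2 differences correlated at 0.319 (Pearson) and 0.43 (Spearman), and their signs were equal in 70.2%. Among the 9159 genes above the median level these values were 0.675, 0.706 and 78.2%. The 4OHT libraries were less alike than the vehicle libraries, differing at least 2-fold in 18.5% of genes against 12.2%. Replicate 2 of 4OHT was above replicate 1 in 47.2% of all tested genes and in 57.1% of those called higher. Among the genes called higher, 73 differed at least 2-fold between the 4OHT libraries, Egr1, Egr2, Egr3, Egr4, Nab1, Nab2, Fos, Arc and Slc46a3 among them, and among those called lower 51. The labels do not say that replicate numbers pair libraries. Which vehicle library is set against which 4OHT library may thus be arbitrary. Of the 165 called genes named here, none stayed called without replicate 1 of vehicle (adjusted p 0.0747 to 0.314), 123 did without replicate 2 of vehicle, 153 without replicate 1 of 4OHT and 117 without replicate 2 of 4OHT.

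The responses of the 2 clones were compared by the interaction in the same fit. edgeR called 198 of 18321 genes more positive in clone 8 than in clone 4 (1.08%) and 321 more negative (1.75%), and 189 of the genes called higher and 218 of those called lower within clone 8 were among them. In edgeR 0 were called without replicate 1 of clone 8 vehicle or without replicate 1 or 2 of the clone 4 4OHT group, with 2964, 3190 and 3219 genes at an unadjusted p under 0.05. Without replicate 1 of clone 4 vehicle 7 were called more positive and 14 more negative, and without replicate 2 of it 10 and 7. Without replicate 2 of clone 8 vehicle the counts were 138 and 187, and without replicate 1 or 2 of clone 8 4OHT they were 449 and 756 or 289 and 591. Over all 8 libraries DESeq2 called 749 more positive and 1057 more negative. On the positive side the lowest p-values lay in Bmp8b and Esrrb, given above, in Perp, in Fam208b, with 25.3 and 30.8 against 76.7 and 78.9 CPM in clone 8 and 66.3 and 59.1 against 48.6 and 45.3 in clone 4, and in Ahnak, with 7.61 and 6.71 against 18.8 and 26.5 CPM in clone 8 and 15.3 and 13.3 against 7.48 and 7.002 in clone 4. On the negative side they lay in Cldn2 and in 4 further genes. Slc13a4, a sulfate transporter gene, held 18.2 and 16.8 against 4.59 and 7.87 CPM in clone 8 and 8.904 and 7.11 against 39.8 and 43.4 CPM in clone 4, so that 4OHT libraries were lower in the former and higher in the latter. Slc7a9, an amino acid transporter gene, held 10.8 and 9.09 against 4.25 and 3.27 CPM in clone 8 and 5.0 and 5.09 against 17.2 and 20.3 CPM in clone 4. Pla2g12b and Dnajc22 fell to 14.8 and 18.96 and 11.4 and 11.3 CPM in clone 8, while clone 4 held 35.9 and 36 and 28.6 and 38.8 CPM with 4OHT against 14.1 and 11.2 and 12.3 and 9.46 CPM in vehicle.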

How the data were processed

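RNA of pooled E5.5 epiblasts was sequenced by the authors, and the deposited file holds raw read counts per Ensembl gene for the 8 libraries, 1 column each. STAR 2.5.3a, bcl2fastq 2.19.1 and the build mm10 are named in the submitters' processing notes; the counter, the annotation and the use of strand are not given in the sources used here, so that overlapping and antisense genes may share reads. Of 52636 gene IDs, 52403 matched a symbol, and the other 233 held at most 0.0325% of a library. Library totals ran from 33.3 M to 72.5 M counts. Groups were taken from the labels. In R 4.3.3, edgeR 4.0.16 (filterByExpr with a minimum count of 10, TMM scaling, quasi-likelihood test, legacy option at its default of on) was fitted to all 8 libraries as 4 groups, the contrast was 4OHT against vehicle in clone 8 or its difference between clones, and p-values were adjusted by Benjamini-Hochberg over 18321 genes. DESeq2 1.42.0 was an alternative. On data simulated for the clone 8 contrast from the counts of 17696 genes, the edgeR fit recovered 57% of genes changed by 1 and 93% of those changed by 2 on the log2 scale. There, 100 better expressed genes were changed by each size, in groups otherwise equal in level and spread. Of 157 genes called, 7 had not been changed. The real groups were less alike, so that these shares may not hold for them. Replicates of a group differed by more than counting noise (chi-square per degree of freedom 20.9 to 61.1). Transcript lengths are from GENCODE M21. Genes were named as the 12 largest called changes each way above the median level, members of lists that were called or that a list is known for, and, for the difference between clones, the 5 lowest p-values each way. The values of some list members are not reported here. Members and lists were chosen with earlier results of these data known. The alternatives tried were other scalings, filters, tools, thresholds, fits without single libraries, a replicate block, and removal of length and GC trends, thinning and other options of the quasi-likelihood fit, of which the last 3 kinds were added after the data were seen.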

Additional observations from a re-analysis of the deposited data

Results flagged for a closer look

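For the genes listed here, the response to 4OHT differed between the clones by edgeR's test of the interaction (adjusted p under 0.05), given here as the log2 fold change in clone 8 minus that in clone 4. The difference was positive, and 2 or more, for Hand1 3.42, Fos 3.26, Bmp8b 2.75, AU018091 2.69, Fosl1 2.66, Ahnak 2.64, Tfap2c 2.63, Itga7 2.62, Fosl2 2.48, Wnt7b 2.30, Ndrg1 2.28 and Hs3st3b1 2.13. It was positive and smaller for Wnt6 1.96, Gata3 1.93, Nfkbiz 1.91, Fam208b 1.89, Vcl 1.87, Esrrb 1.85, Plaur 1.75, Perp 1.52, Erbb3 1.46, Hk1 1.44, Smad3 1.36, Ets2 1.25, Zfp36 1.24, Polr2a 1.22, Polr1a 1.04, Lin28b 1.02, Ccng1 0.93, Slc2a1 0.88 and Rps6ka6 0.87. It was negative, and 2 or more in size, for Hnf4a -4.39, Slc13a4 -3.87, Klb -3.76, Ttr -3.67, Fcgrt -3.64, Cldn2 -3.55, Apom -3.53, Amn -3.33, Slc7a9 -3.29, Apoa1 -3.10, Rbp4 -3.08, Spink1 -3.07, Pla2g12b -2.71, Dnajc22 -2.64, Gna12 -2.45, Pkdcc -2.08 and Sox12 -2.04. It was negative and smaller for Ctdnep1 -1.93, Bod1 -1.86, Abhd17a -1.79, Smad1 -1.63, Hras -1.56, Khdrbs3 -1.56, Egln1 -1.47, Furin -1.46, Smad4 -1.35, Sod1 -1.08, Fth1 -0.999, Mapk3 -0.98 and Ndufa13 -0.89. Among the positive ones are trophoblast factors (Bmp8b, Tfap2c, Gata3, Esrrb), and among the negative ones visceral endoderm genes (Hnf4a, Ttr, Apom, Amn). Outliers within a group were not tested, since each group holds 2 libraries.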

How the results depend on the processing

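Without replicate 1 of vehicle no gene was called, and leaving out each of the 8 libraries in turn gave 0 to 1474 genes called higher and 0 to 1705 lower in clone 8, and 0 to 449 higher and 0 to 756 lower for the difference between the clones. In clone 8, 3 genes higher and 0 lower were called in the fit of its 4 libraries alone, 2361 higher and 1902 lower without a filter on low counts, 877 higher and 1466 lower with length and GC trends removed, 2101 and 1076 with library totals, 2067 and 2210 by DESeq2, 116 and 156 at an adjusted p under 0.01, and 616 and 444 with a log2 change of at least 1. For the difference between the clones, 998 higher and 1116 lower were called without the filter, 749 and 1057 by DESeq2, 197 lower with library totals, and 0 either way at an adjusted p under 0.01. Apart from the stricter limits, the cause of these shifts was not tested. The share of genes with both 4OHT libraries higher was 30.7% with RLE factors and 37.6% with library totals, and with both lower 29.1% and 22.8%. Among genes above the median level the replicate differences had a correlation of 0.675 and 78.2% equal signs.

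Deviations of same-numbered libraries correlated at -0.01 in clone 8 and 0.095 in clone 4 across 18321 genes. These values cannot tell whether libraries of the same number shared a litter or day. A fit with the replicate block called 1444 genes higher and 1453 lower, and 10 of the named genes lost their call. Among the named genes Jun, Dusp2 and mt-Nd2, none of them called, changed sign when a 4OHT library was left out: the log2 fold change of Jun ran from -0.269 to 1.74, that of Dusp2 from -0.023 to 2.76 and that of mt-Nd2 from -0.005 to 0.46 over the fits without 1 library. The vehicle level of Egr3 rests on 0 and 4 counts.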
